A study of Mus musculus with 29 samples.

Results

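The muscle ankyrin repeat genes and the core genes of the YAP and TAZ response were followed in tibialis anterior (TA) muscle across adult life. The group holds 10 of the 22537 gene symbols that were counted, namely Ankrd1, Ankrd2, Ankrd23, Cyr61, Ctgf, Amotl2, Yap1, Wwtr1, Tead1 and Tead4. The group was selected on gene function and partly on measured values, because Ankrd1 and Cyr61 were picked for their higher levels in old mice. For Ankrd1 and Cyr61 the age differences are therefore given as a description without a test, and the other 8 genes were tested. Poly-A RNA of whole TA muscle from male C57BL/6 mice, with no treatment or engineered allele named, was sequenced at the ages of 6 months (6m, n = 7), 24 months (24m, n = 7) and 28 months or older (28m, n = 8). Libraries of the 6m and 24m mice made up the first run. The second consisted of the 28m mice with a repeat library from each of the 7 adult mice, giving 29 libraries of 22 mice. Each old group was compared with the 6m libraries of its own run.

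The muscle ankyrin repeat proteins are small stress-responsive proteins of striated muscle that bind titin in the I band of the sarcomere and can also enter the nucleus. Ankrd1 encodes CARP, a protein strongly induced by stretch, injury and denervation, Ankrd2 encodes ARPP, which is found mainly in slow fibres, and Ankrd23 encodes DARP. YAP (Yap1) and TAZ (Wwtr1) are transcriptional co-activators held back by phosphorylation through the Hippo kinases, and in the nucleus they act through the TEAD DNA-binding factors, of which Tead1 and Tead4 are expressed in muscle. Cyr61, Ctgf and Amotl2 are among the most widely used readouts of this pathway, and Ankrd1 is both a muscle ankyrin repeat gene and a YAP target. YAP and TAZ act largely through their phosphorylation and location, which messenger RNA levels do not report.

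The TEAD factors recognise the 6-letter motif GGAATG, read as CATTCC on the other strand. The 250 bases before each RefSeq start site were searched on both strands (GRCm38.p6), and entries were found for 7 of the 10 genes, Cyr61 under its newer symbol Ccn1. Ctgf, Tead1 and Tead4 had no entry in the sequences used here. At least 1 match was present for 6 of the 7 genes, and Ankrd2 had none. Of all 27025 RefSeq genes searched, 14.4% had a match in at least 1 window, and 12.6% of the 32851 windows held the motif. The matches are shown because ankyrin repeat genes, pathway readouts and both co-activators held the same letters, and they are printed 5′ to 3′ on the strand of the gene with the motif in capitals.
Ankrd1, starting 210 bases before the start site, chr19:36120037-36120066, minus strand: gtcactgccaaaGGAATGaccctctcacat
Ankrd1, starting 123 bases before the start site, chr19:36119950-36119979, minus strand: gacactaagtctGGAATGaaaattcacctg
Ankrd23, starting 120 bases before its second start site, chr1:36535842-36535871, minus strand: cccagtgggccaCATTCCcagaacggtatt
Cyr61, starting 103 bases before the start site, chr3:145650071-145650100, minus strand: cgcgccaaccaaCATTCCtgagatgtttga
Amotl2, starting 65 bases before the start site, chr9:102717727-102717756, plus strand: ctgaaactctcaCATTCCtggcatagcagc
Yap1, starting 141 bases before the start site, chr9:8004720-8004749, minus strand: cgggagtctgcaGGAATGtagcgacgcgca
Wwtr1, starting 136 bases before its first start site, chr3:57576029-57576058, minus strand: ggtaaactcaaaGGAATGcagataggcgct
In the GENCODE annotation of GRCm38, both Ankrd1 matches and the Amotl2 match fell in exonic untranslated sequence of longer transcripts of the same gene, the Ankrd23 match lay in an intron, and those of Cyr61, Yap1 and Wwtr1 lay in no annotated gene. These are matches of letters and not measured binding sites.

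Total counts on genes were between 17633475 and 33499162 per library. Values of single libraries are CPM, counts scaled to library size with TMM factors (trimmed mean of M values) over all 29 libraries. The TA is a fast muscle, and the summed level of 7 fast fibre markers was between 108122 and 189799 CPM over the libraries against 79.0 to 498 CPM for 7 slow fibre markers. Endothelial, fibroblast, immune and other markers were also detected, and in whole muscle fewer cells of a type and less RNA per cell cannot be told apart. The first-run library of 6m replicate 4 differed from its own repeat more than the other mice did, with a standard deviation (SD) of the log2 difference of 0.617 over genes, against 0.237 to 0.282 in the other 6 mice. The fold changes at 28m fell with exonic length (Spearman's rho across 12873 genes −0.539, against −0.269 at 24m over 12979 genes), so the called genes among the 10 and the counts of calls in the pathway and muscle gene lists are also given after the dependence on length and GC had been taken out, library by library (the length and GC trend). Single genes of the lists are given without this step.

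Per kilobase of exon, Ankrd23 was by far the most abundant of the 10 genes at every age. Its mean was 1109 ± 108 CPM per kb (SD, n = 7) in the 6m libraries of the second run, followed by Ankrd2 at 50.4 ± 10.9, Tead1 at 27.5 ± 2.38 and Cyr61 at 17.1 ± 3.97 CPM per kb. Wwtr1 at 10.2 ± 1.15, Yap1 at 9.92 ± 0.755 and Ankrd1 at 7.68 ± 2.63 CPM per kb came next and were within their spread of each other. Ctgf at 4.76 ± 1.36 lay above Tead4 at 3.19 ± 0.941 and Amotl2 at 3.12 ± 0.680 CPM per kb, and the last of these could not be ordered. In the 28m mice Ankrd1 had rank 3 with 49.9 ± 23.1 CPM per kb (SD, n = 8), behind Ankrd2 at 79.7 ± 28.7 and ahead of Cyr61 at 40.0 ± 5.69, and these 3 means were within about the spread of their neighbours. Tead1 had rank 3 at 6m and rank 5 at 28m, with 15.004 ± 3.62 CPM per kb.

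**Figure D1:**
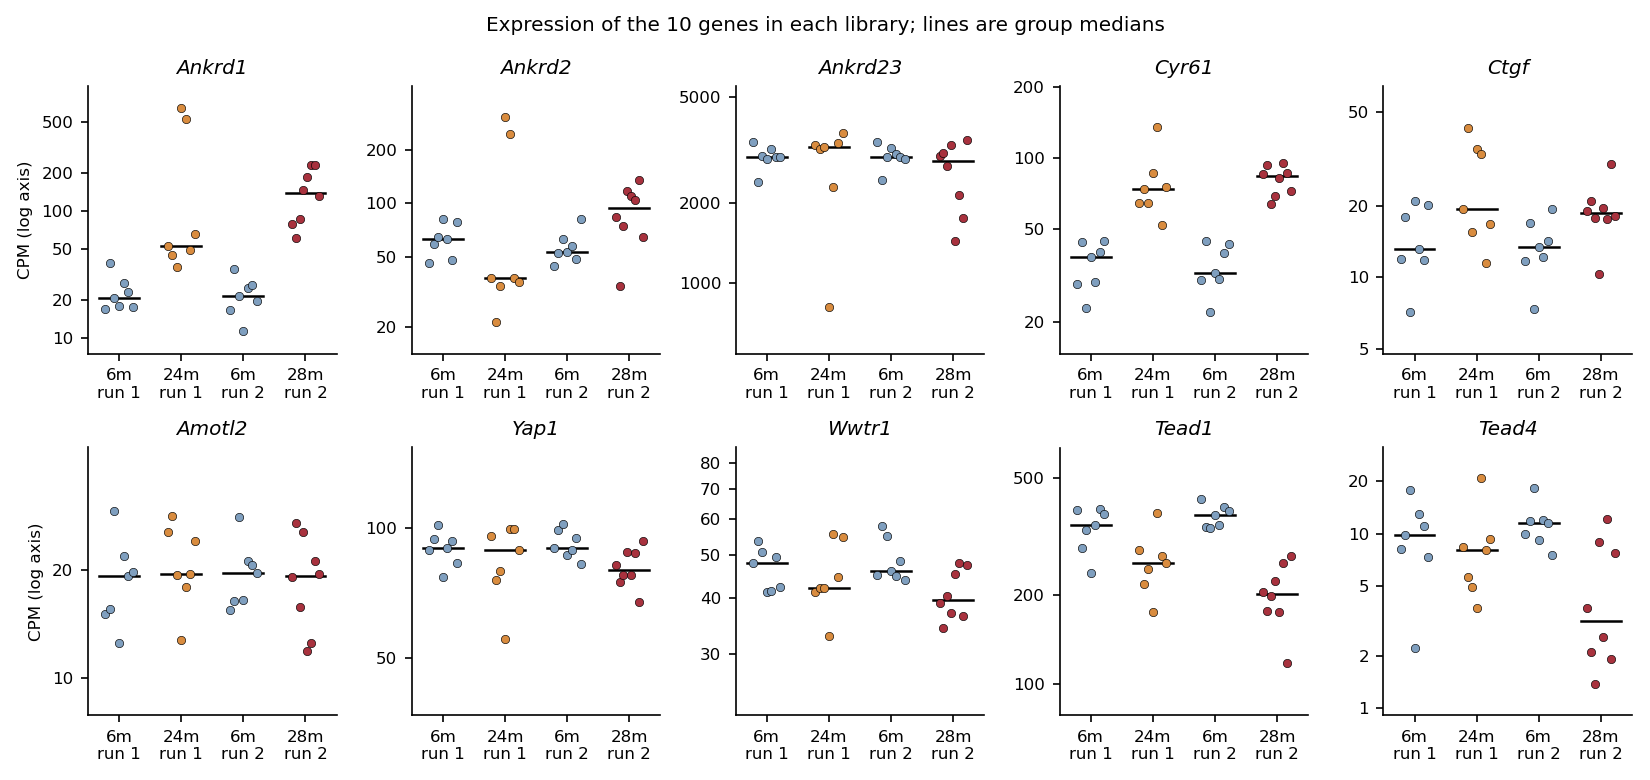
Expression in CPM on a log axis for each of the 10 genes, with 1 point per library and a line at the median of the 6m and 24m groups of the first run and the 6m and 28m groups of the second run. All 28m points of Ankrd1 and Cyr61 lie above all 6m points of their run, all 28m points of Tead1 lie below them, and 2 of the 24m points stand far above the rest in Ankrd1 and Ankrd2.

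The first question was how these genes differed in the oldest mice. At 28m, Ankrd1 was 6.38 times and Cyr61 2.29 times the 6m level, Ankrd2 was higher, and Yap1, Wwtr1, Tead1 and Tead4 were lower. Of the 8 genes tested, 1 was called higher and 4 lower at an adjusted p under 0.05 (edgeR's quasi-likelihood test, Benjamini-Hochberg over 12994 genes). Over all genes in this comparison, 24.3% were called higher and 22.9% lower. With a trend of length and GC removed, Wwtr1, Tead1 and Tead4 were the 3 of the 8 called, beside 4833 of all genes. Yap1 then had a log2 fold change of 0.12. Against the first-run 6m libraries only Tead1 was called, beside 2981 of all genes.

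Ankrd1 (chromosome 19, 36111961 to 36120099, minus strand, GRCm38) had between 11.3 and 35.003 CPM in the 6m mice, with a median of 21.3 CPM. The 28m mice had between 60.9 and 231 CPM, with a median of 139 CPM. The lowest 28m mouse, replicate 2, was above the highest 6m mouse, so the groups did not overlap. On the log2 scale the difference was 2.67 (standard error, SE, 0.31, 95% interval 2.01 to 3.34), and it was 2.498 with the length and GC trend removed. The spread among old mice was wide, and replicate 6 had 3.79 times the level of replicate 2.

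Ankrd2 (chromosome 19, 42036000 to 42045110, plus strand) had between 44.4 and 82.2 CPM at 6m, with a median of 53.1 CPM, and between 34.4 and 136 CPM at 28m, with a median of 94.0 CPM. The highest level was that of replicate 7, and replicate 2, which was also lowest in Ankrd1, lay below every 6m mouse. Its log2 fold change of 0.64 (SE 0.23) had an adjusted p of 0.0297 by edgeR's quasi-likelihood test. With the length and GC trend removed it was 0.20 with an adjusted p of 0.502, and of the 15 fits that left out 1 mouse, 9 kept the call. Ankrd2 has an exonic length of 1138 bases, the shortest of the 10 genes.

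Ankrd23 (chromosome 1, 36530188 to 36536883, minus strand) had between 2440 and 3367 CPM at 6m, with a median of 2980 CPM. At 28m it had between 1437 and 3440 CPM, with a median of 2874 CPM. Replicates 5, 6 and 7 at 28m, with 1437, 2142 and 1753 CPM, lay below every 6m mouse, and the other 5 lay within or near the 6m range. The log2 fold change was −0.22 (95% interval −0.57 to 0.13, adjusted p = 0.279 by edgeR's quasi-likelihood test), so a change in the group mean was not shown. The coefficient of variation was 9.70% at 6m and 28.5% at 28m.

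Cyr61 (chromosome 3, 145646976 to 145649981, minus strand), a secreted matricellular protein of the CCN family, had between 22.01 and 44.2 CPM at 6m with a median of 32.5 CPM. The 28m mice had between 63.4 and 95.2 CPM, with a median of 83.9 CPM. The groups did not overlap, and the 28m mice were close to each other, with a coefficient of variation of 14.2% against 46.3% for Ankrd1. Its log2 fold change was 1.197 (SE 0.14, 95% interval 0.90 to 1.49), and 0.92 with the length and GC trend removed. Over all genes tested, 6.21% had all 28m mice above all 6m mice and 6.18% had all of them below. In the group of 10, these were Ankrd1 and Cyr61 on the higher side, which were picked for this, and Tead1 on the lower side.

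Ctgf (chromosome 10, 24595442 to 24598683, plus strand), a CCN protein linked to fibrosis, had a median of 13.4 CPM at 6m, with a range of 7.34 to 19.4, and a median of 18.6 CPM at 28m, with a range of 10.3 to 30.02. The groups overlapped. A log2 fold change of 0.47 (95% interval 0.05 to 0.89) had an adjusted p of 0.0632 by edgeR's quasi-likelihood test. The gene was called by DESeq2 (adjusted p = 0.0472) and by edgeR without 6m replicate 7 (0.0332) or 28m replicate 4 (0.0169), and over all 21 alternatives the adjusted p was between 0.0169 and 0.220. Amotl2 (chromosome 9, 102716672 to 102733418, plus strand), an angiomotin that binds YAP and is also its target, had a median of 19.5 CPM at 6m and 19.3 CPM at 28m. Its log2 fold change was −0.07 (95% interval −0.45 to 0.30, adjusted p = 0.744 by the same edgeR test), and it was 0.23 with the trend removed.

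The co-activators were lower by small amounts. Yap1 (chromosome 9, 7931999 to 8004596, minus strand) had between 82.3 and 102 CPM at 6m, with a median of 89.7 CPM, and between 67.3 and 93.4 CPM at 28m, with a median of 80.1 CPM. The ranges overlapped in part. This was a log2 fold change of −0.21 (SE 0.08, adjusted p = 0.0476 by edgeR's quasi-likelihood test). That call was lost in 11 of the 15 fits without 1 mouse, and with the trend removed the value was 0.12 (adjusted p = 0.120). Wwtr1 (chromosome 3, 57455649 to 57575910, minus strand) had between 43.9 and 57.8 CPM at 6m, with a median of 45.9 CPM, and between 34.2 and 48.0 CPM at 28m, with a median of 39.7 CPM. Its log2 fold change was −0.28 (SE 0.10, adjusted p = 0.0265 by edgeR's quasi-likelihood test). It was −0.25 (adjusted p = 0.0304) with the trend removed, and 12 of the 15 fits without 1 mouse kept the call.

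The DNA-binding factors fell further. Tead1 (chromosome 7, 112679318 to 112906807, plus strand) had between 339 and 423 CPM at 6m, with a median of 376 CPM. The 28m mice had between 118 and 273 CPM, with a median of 202 CPM, and all 8 lay below all 6m mice. That amounts to a log2 fold change of −0.90 (SE 0.14, adjusted p = 0.000497 by edgeR's quasi-likelihood test). The call held in all 15 fits without 1 mouse, and with the trend removed the value was −0.46 (adjusted p = 0.00226). Tead1 has the longest exonic length of the group, 13570 bases.

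Tead4 (chromosome 6, 128224288 to 128300823, minus strand), a factor active in myoblasts, had between 7.54 and 18.2 CPM at 6m, with a median of 11.5 CPM. The 28m mice had between 1.37 and 12.2 CPM, with a median of 3.16 CPM. Of the 28m mice, replicates 4, 6 and 8 had 8.97, 12.2 and 7.72 CPM, inside the 6m range, and the other 5 had between 1.37 and 3.74 CPM, below every 6m mouse. The log2 fold change was −1.19 (SE 0.41, adjusted p = 0.0243 by edgeR's quasi-likelihood test), and −1.203 (adjusted p = 0.0225) with the trend removed. In 14 of the 15 fits without 1 mouse the call was kept. The summed level of 4 adipocyte markers divided the 28m mice in the same way, with 162, 142 and 149 CPM in replicates 4, 6 and 8 against 271 to 478 CPM in the other 5 and 153 to 164 CPM at 6m. In the first run, 6m replicate 4 and 24m replicate 4 had the lowest Tead4 of their groups, 2.22 and 3.78 CPM, and the highest adipocyte sums, 273 and 511 CPM against 156 to 181 and 116 to 192 CPM in the other mice. Fabp4, which is also expressed in endothelium, made up most of these sums. Without it the same 3 mice at 28m had 5.96, 2.55 and 4.81 CPM against 15.2 to 41.1 CPM, and 24m replicate 4, with 15.4 CPM, was no longer the highest of its group. The part of this in the Tead4 values was not tested. Replicates 4, 6 and 8 also had the highest Tead1 of the 28m group (225, 257 and 273 CPM) and the highest Yap1 (88.0, 87.2 and 93.4 CPM).

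With the 6m libraries of the first run as the reference in place of their repeats, Tead1 was the only one of the 8 genes still called, with a log2 fold change of −0.75 (adjusted p = 0.00841 by edgeR's quasi-likelihood test), and Ankrd1 and Cyr61 had values of 2.61 and 1.17. The 4 genes no longer called had log2 fold changes of −0.98 (Tead4), 0.51 (Ankrd2), −0.21 (Wwtr1) and −0.16 (Yap1), and the calls over all genes were 2981 in place of 6140. The first-run library of 6m replicate 4, with the lowest Tead1 and Tead4 of its group, is part of that reference.

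**Figure D2:**
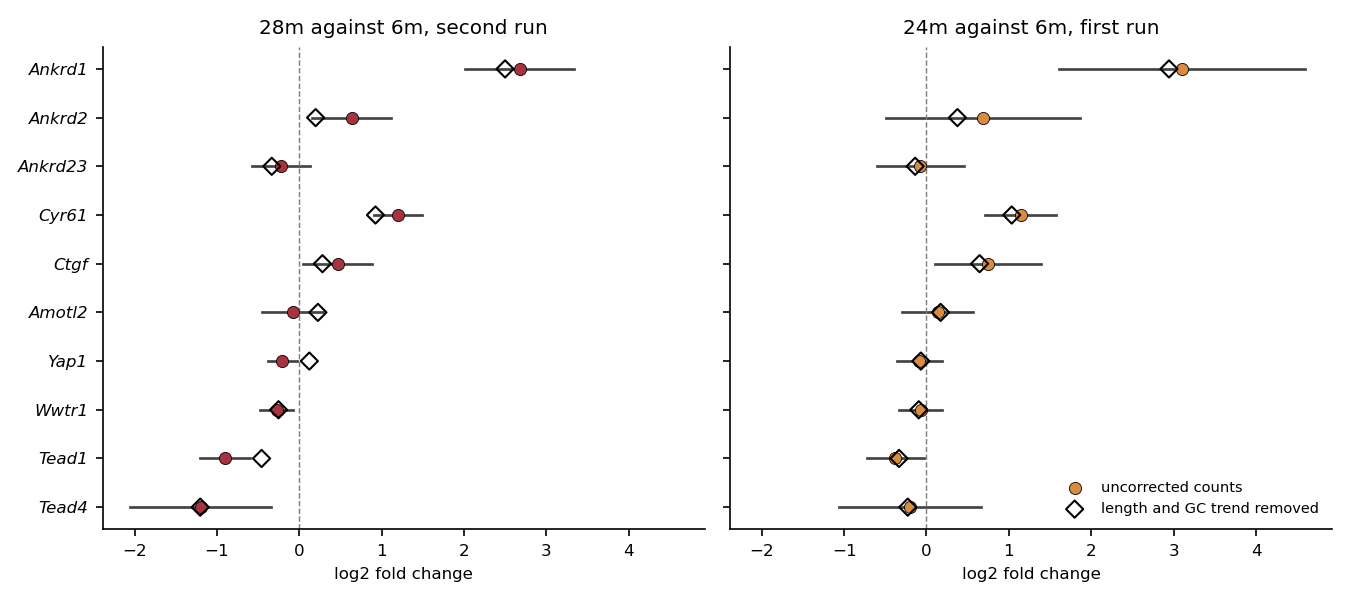
Log2 fold change of each gene at 28m (left) and 24m (right) against the 6m libraries of the same run, with filled points and 95% intervals from edgeR on uncorrected counts and open diamonds for the values with a length and GC trend removed. At 28m the diamonds move Ankrd2 from 0.64 to 0.20, Yap1 from −0.21 to 0.12 and Tead1 from −0.90 to −0.46, and leave Ankrd1, Wwtr1 and Tead4 close to the filled points.

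The rest of the pathway was examined through lists of genes of known function. Of 14 Hippo kinases and adaptors tested, none was called higher and 10 were called lower in the oldest mice by edgeR's quasi-likelihood test. In the same comparison 24.3% of all genes were called higher and 22.9% lower. The median log2 fold change of the list was −0.45, against 0.0091 over all genes tested. The largest falls were those of the paralogs Mob1a (log2 fold change −1.28, SE 0.40) and Mob1b (−0.97, SE 0.30) and of Nf2 (−0.78, SE 0.19), which encodes the upstream regulator merlin. Mob1a and Mob1b encode co-activators of the LATS kinases, and reads shared by both may be missing from the counts. Nf2 had between 41.8 and 108 CPM at 28m and between 116 and 137 CPM at 6m, so its groups did not overlap. With the length and GC trend removed, 5 of the 14 were called lower and the median was −0.06, where 2029 of all 12994 genes were called lower and 2804 higher and the median was 0.035. The first-run 6m libraries also gave 5 lower calls, beside 1422 of 12984 genes.

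Of 17 other YAP and TAZ targets tested, 1 was called higher and 4 lower, a share no larger than that of all genes (24.3% higher and 22.9% lower) in total. Their median log2 fold change was −0.24, and with the trend removed it was 0.17, with 2 called higher and 3 lower. The gene called higher was Gadd45a, a stress and denervation responsive gene, with 40.5 to 172 CPM at 28m against 13.97 to 24.4 CPM at 6m (log2 fold change 2.11, SE 0.30, adjusted p = 0.000346 by edgeR's quasi-likelihood test). Lats2 (−0.58), a Hippo kinase that is also on the kinase list, Axl (−0.57), a receptor tyrosine kinase, and Asap1 (−0.54) had the largest falls among the targets that passed the same test. The other 12 targets were not called, and the list shares Lats2 with the kinases and Ptpn14 with the partners.

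Of 10 partners of YAP, TAZ and TEAD, none was called higher and 4 were called lower, with a median log2 fold change of −0.23. In total this share was below that of all genes (24.3% higher and 22.9% lower). Among those called, Vgll4 (log2 fold change −0.95, SE 0.25), which competes with YAP for TEAD, Amotl1 (−0.47, SE 0.14), an angiomotin, and Vgll3 (−0.46, SE 0.17) fell most by edgeR's quasi-likelihood test. With the trend removed, 1 partner was called higher and 1 lower, the median was −0.031, and with the first-run 6m libraries none was called. The other CCN family members Nov, Wisp1 and Wisp2 gave no call among the 3 tested, and with the trend removed 1 of them was called lower.

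The ankyrin repeat proteins sit on titin, and of 17 genes of titin and its Z-disc partners, 3 were called higher and 4 lower at 28m by edgeR's quasi-likelihood test. This share was no larger in total than that of all genes (24.3% higher and 22.9% lower), and the median log2 fold change was −0.095. Tcap, which caps titin at the Z disc, had a log2 fold change of 1.08 (SE 0.17), Cryab, a small heat shock protein, of 0.70 (SE 0.14), and Des, which encodes desmin, of 0.64 (SE 0.10). Palld (−1.17, SE 0.28), an actin-binding scaffold, Xirp2 (−0.91, SE 0.14) and Ttn itself (−0.72, SE 0.16) were lower. With the trend removed, 2 genes of this list were called higher and 3 lower.

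Of 12 immediate early genes, 3 were called higher and none lower, Ier3 (log2 fold change 1.22, SE 0.14), Atf3 (1.003, SE 0.30) and Btg2 (0.67, SE 0.24), by edgeR's quasi-likelihood test. Over all genes 24.3% were called higher, so the share of this list was near the background. Its median log2 fold change was 0.27, and with the trend removed 1 gene was called and the median was 0.19. Of 9 genes that respond to denervation, 5 were called higher and none lower, among them Chrng (log2 fold change 3.52, SE 0.81), the fetal acetylcholine receptor subunit, and Myog (2.09, SE 0.46), a myogenic factor. The median of these 9 was 1.597, and with the trend removed 6 of them were called higher with a median of 1.69.

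Markers of other cell types moved in the same comparison, and their part in the values above was not tested. Of 7 endothelial markers, 1 was called higher and 5 lower, of 6 fibroblast markers none higher and 4 lower, and of 6 smooth muscle and pericyte markers 1 higher and 4 lower, beside 24.3% of all genes higher and 22.9% lower. With the length and GC trend removed the lower calls numbered 4 of the endothelial, 1 of the fibroblast and 3 of the smooth muscle and pericyte markers, and with the first-run 6m libraries 4, 3 and 1. Of 7 slow fibre markers 4 were called higher and none lower, and of 7 fast fibre markers 3 were higher and 1 lower. With the trend removed 3 slow markers were called higher, and 2 fast markers were called higher and 1 lower. The first-run 6m libraries gave 2 higher calls for the slow and 1 for the fast markers. Tendon, Schwann cell and adipocyte markers had 1 call each, all higher, satellite cell markers 1 lower (Pax7), and the 5 immune markers none. These counts were the same with the trend removed. With the first-run 6m libraries tendon and Schwann cell markers kept 1 call each, and adipocyte and satellite cell markers had 0. No marker on these lists was at 0 in all libraries of a group. The summed endothelial level was 226 to 322 CPM at 28m and 384 to 428 CPM at 6m, and the summed fibroblast level 322 to 1171 and 546 to 2795 CPM.

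**Figure D3:**
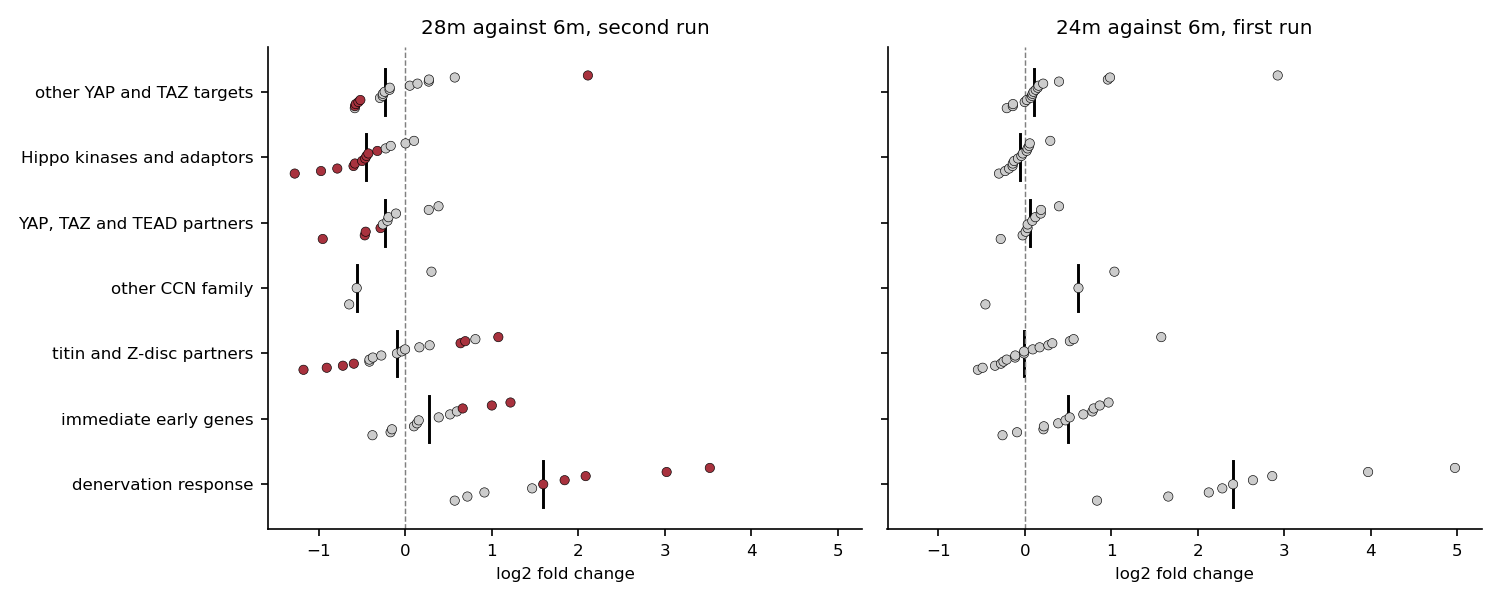
Log2 fold change of each gene of 7 lists at 28m (left) and 24m (right), with red points for genes called at an adjusted p under 0.05, grey points for the others and a line at the median of each list. In the Hippo list 10 of 14 genes are called lower at 28m, beside 22.9% of all genes tested. Its median is −0.45 (−0.06 with the length and GC trend removed). The denervation list lies right of 0 in both panels, and no gene of the lists is called at 24m.

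The second question was whether the same genes differed at 24m. None of the 8 genes tested was called by edgeR's quasi-likelihood test, where 0.0611% of 13103 genes were called higher and 0.0229% lower, and 2 of the 8 and 1546 of all genes had an unadjusted p under 0.05. DESeq2 also called none of the 8. Over all genes, 0.359% had all 24m mice above all 6m mice and 0.229% had all of them below. Among the 10 genes this held for Cyr61 on the higher side, which was picked for its higher level in old mice, and for none on the lower side.

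Ankrd1 had between 16.97 and 39.3 CPM in the 6m mice of the first run, with a median of 20.6 CPM. Of the 24m mice, replicates 4 and 5 had 645 and 533 CPM, and the other 5 had between 36.2 and 66.0 CPM. All but replicate 3 lay above every 6m mouse. On the log2 scale this gave 3.10 (SE 0.70, 95% interval 1.61 to 4.59), and without replicates 4 and 5, a choice made after their values were seen, it was 1.09.

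Ankrd2 separated the 24m mice in both directions. Replicates 4 and 5 had 307 and 246 CPM, above every 6m mouse, and the other 5 had between 21.3 and 38.1 CPM, below every 6m mouse, whose range was 46.1 to 81.2 CPM. The log2 fold change over all 7 mice was 0.68 (95% interval −0.50 to 1.86, adjusted p = 0.598 by edgeR's quasi-likelihood test), and without those 2 mice it was −0.91. In the 28m group 7 mice had between 65.0 and 136 CPM and replicate 2, with 34.4 CPM, was within the range of those 5 mice at 24m.

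Ankrd23 showed the reverse order. Replicates 4 and 5 at 24m had 811 and 2282 CPM, and the other 5 had between 3182 and 3663 CPM against 2390 to 3374 CPM at 6m. The log2 fold change was −0.07 (95% interval −0.60 to 0.45, adjusted p = 0.908 by edgeR's quasi-likelihood test), and 0.17 without those 2 mice.

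Replicates 4 and 5 also stood apart in other lists, and the part of these in the values above was not tested. Their summed denervation level was 369 and 846 CPM against 42.6 to 238 CPM in the other 24m mice and 33.0 to 124 CPM at 6m. The summed slow fibre level was 498 and 254 CPM against 112 to 163 CPM, and that of the YAP, TAZ and TEAD partners 1213 and 1471 CPM against 749.6 to 954 CPM. These lists were also highest in both mice without their most abundant gene (Chrna1, Myl3 and Amotl1), but replicate 4 led narrowly in the partners and the denervation list. Its partner sum without Amotl1 was 421 CPM against 340 to 416 CPM in the other 5 mice. Without Chrna1 its denervation sum was 204 CPM against 27.6 to 191 CPM. The sum of the other YAP and TAZ targets, 922 and 798 CPM against 395 to 524 CPM, rested on Gadd45a, which had 627 and 282 CPM against 25.3 to 91.1 CPM. Without Gadd45a the sum was 295 and 516 CPM against 357 to 468 CPM, so replicate 4 was lowest and replicate 5 highest. Endothelial markers were lowest in both mice, with 199 and 286 CPM against 318 to 428 CPM, and remained so without Cdh5. Smooth muscle and pericyte markers were at 208 and 241 CPM against 306 to 402 CPM, and without Rgs5 replicate 4, with 194 CPM, was inside the range of the others. Adipocyte markers separated them, with the highest sum of the group in replicate 4 (511 CPM) and the lowest in replicate 5 (116 CPM). In the 28m group, replicates 6 and 7 had nearly equal Ankrd1, 231 and 229 CPM, and summed denervation levels of 478 and 122 CPM, beside 53.0 to 115 CPM in the other 6.

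Cyr61 at 24m had between 52.0 and 135 CPM, with a median of 73.6 CPM, and the 6m mice had between 23.04 and 44.1 CPM. The log2 fold change was 1.14 (SE 0.20, 95% interval 0.71 to 1.57), and 0.90 without replicates 4 and 5. Ctgf had a median of 19.5 CPM at 24m and 13.2 CPM at 6m, a log2 difference of 0.74 (95% interval 0.10 to 1.39, adjusted p = 0.386 by edgeR's quasi-likelihood test). The log2 fold changes of Amotl2, Yap1, Wwtr1 and Tead4 were between −0.20 and 0.14. Tead1 had between 176 and 380 CPM at 24m against 238 to 394 CPM at 6m (log2 fold change −0.38, 95% interval −0.73 to −0.03, adjusted p = 0.400 by edgeR's quasi-likelihood test). No gene of the pathway, Z-disc, immediate early, denervation or marker lists was called at 24m. The denervation list had a median log2 fold change of 2.41, and that of the Hippo list was −0.06.

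The difference between the age effects was tested in a model of all libraries. None of the 8 genes was called, and 0% of 13455 genes were called higher and 0% lower, by edgeR's quasi-likelihood test. DESeq2 called 2 of all genes and none of the 8. By the edgeR test 1611 genes, Tead1 alone of the 8 among them, had an unadjusted p under 0.05. With the mouse as a replicate block (limma-voom) 0 genes were called, and 2865 genes, 2 of the 8 among them, had an unadjusted p under 0.05. The log2 effect at 28m minus that at 24m was −0.51 for Tead1 (95% interval −0.94 to −0.07, adjusted p = 0.399), −0.99 for Tead4 (−2.22 to 0.23, adjusted p = 0.475) and −0.05 for Ankrd2 (−1.30 to 1.21, adjusted p = 0.978), all by edgeR's quasi-likelihood test. For Ankrd1 and Cyr61 it was −0.43 (95% interval −1.93 to 1.07) and 0.07 (−0.44 to 0.58). A difference between the ages was therefore not shown for the 8 genes tested. The values of Ankrd1 and Cyr61 are a description without a test, and the intervals of Ankrd1, Ankrd2 and Tead4 are wide.

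The 6m mice, sequenced in both runs, give the technical error of each gene. No gene of the 10 was called between the runs by edgeR's quasi-likelihood test with the mouse as a block, 0% of 12884 genes were called higher and 0% lower, and 1052 genes, none of them among the 8, had an unadjusted p under 0.05. DESeq2 also called 0 genes. In the 6 mice other than replicate 4, the ratio of the second-run to the first-run CPM was between 0.892 and 1.14 for Ankrd1, between 0.955 and 1.03 for Cyr61, between 0.989 and 1.05 for Yap1 and between 0.996 and 1.18 for Tead1. In replicate 4 the ratio was 0.631 for Ankrd1, 0.653 for Ankrd2, 1.58 for Tead1 and 4.17 for Tead4, whose CPM was 2.22 in the first library and 9.26 in the second. The 24m log2 fold change without that mouse was −0.46 for Tead1 and −0.38 for Tead4. For Wwtr1 the ratio was between 0.936 and 1.09 in the other 6 mice, beside a fold of 0.826 at 28m, and the fold of Yap1 at 28m was 0.867.

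**Figure D4:**
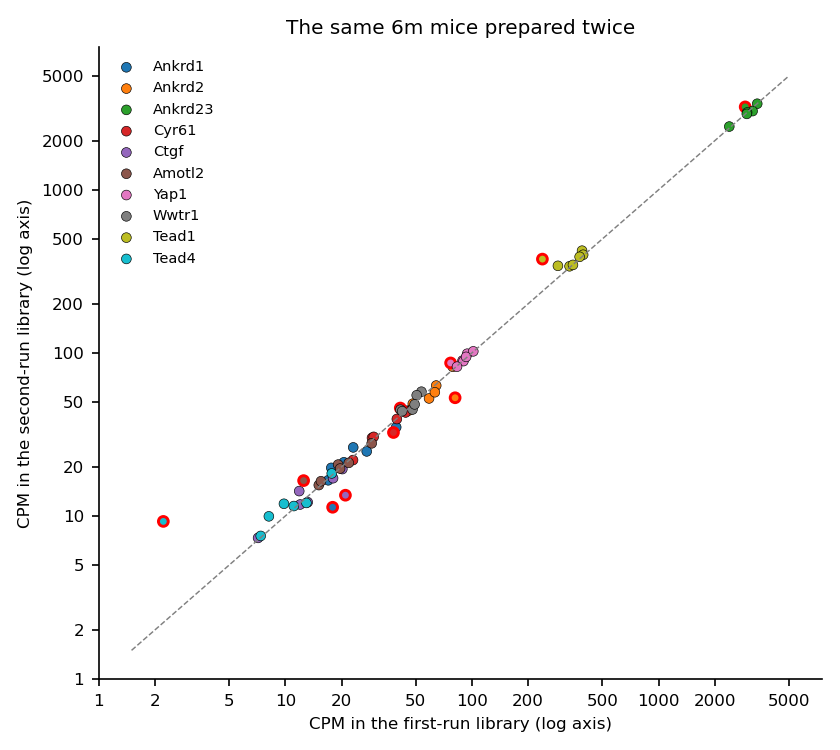
CPM of the 10 genes in the second-run library against the first-run library of the same 7 mice at 6m, on log axes with a dashed line at equality and red rings on replicate 4. Points lie close to the line over the whole range except those of replicate 4, of which Tead4, at 2.22 and 9.26 CPM, is farthest from it.

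The variation among mice of the same age was then compared between the genes, as deviations of log2 CPM from the group mean in 22 mice, with both 6m libraries of a mouse averaged. Of 15 pairs among Ankrd1, Ankrd2, Ankrd23, Cyr61, Ctgf and Amotl2, 7 passed a permutation test of Pearson's r within age groups at an adjusted p of 0.05, and 8 passed the same test of Spearman's rho, 6 of them by both (100000 permutations, two-sided, Benjamini-Hochberg adjustment over the 15 pairs). With the length and GC trend removed 2 pairs passed by Pearson's r, those of Ankrd1 with Ankrd2 and with Ankrd23. Leaving out the 2 mice farthest in the first gene of a pair and centring the other 20 again on their age means, a step chosen after the data were seen, left 1 pair at an adjusted p under 0.05, Cyr61 with Ctgf.

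Ankrd1 and Ankrd2 went together (Pearson's r = 0.907, permutation p = 0.00059, adjusted p = 0.00345, and Spearman's rho = 0.804, permutation p = 0.00132, adjusted p = 0.0099, n = 22). Without the 2 mice farthest in Ankrd1, 24m replicates 4 and 5, r was 0.579 (permutation p = 0.0237, adjusted p = 0.0959), so the call rests on these 2 mice. The value over all mice of an age was 0.98 at 24m, where it rests on replicates 4 and 5, 0.819 at 28m and −0.213 at 6m, and a difference between the ages in this relation was not tested. Ankrd1 and Ankrd23 went in opposite directions (r = −0.777, permutation p = 0.00052, adjusted p = 0.00345, and rho = −0.719, permutation p = 0.00326, adjusted p = 0.0126). The value of r was −0.755 at 6m, −0.655 at 28m and −0.829 at 24m, where it rests on replicates 4 and 5. Without these 2 mice r was −0.592 over the other 20 (permutation p = 0.0429, adjusted p = 0.12), and the call was lost. Ankrd2 and Ankrd23 had r = −0.746 (permutation p = 0.0016, adjusted p = 0.006) and rho = −0.691 (permutation p = 0.00506, adjusted p = 0.0126), with −0.171 at 6m, −0.834 at 24m and −0.555 at 28m. Without the same 2 mice it was −0.45 (permutation p = 0.166, adjusted p = 0.355).

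Cyr61 and Ctgf, both of the CCN family, had r = 0.706 (permutation p = 0.00069, adjusted p = 0.00345) and rho = 0.723 (permutation p = 0.0004, adjusted p = 0.006), and r was 0.913 at 6m, 0.675 at 24m and 0.494 at 28m. Without the 2 mice farthest in Cyr61, 24m replicate 5 and 6m replicate 3, it was 0.645 (permutation p = 0.00303, adjusted p = 0.0454), and with the length and GC trend removed it was 0.518 (adjusted p = 0.0808, permutation). Ankrd1 and Cyr61 had r = 0.576 (permutation p = 0.0144, adjusted p = 0.0359) and rho = 0.495 (permutation p = 0.0226, adjusted p = 0.0425), but r was 0.202 without 24m replicates 4 and 5 (permutation p = 0.386, adjusted p = 0.546) and was 0.801 at 24m, 0.291 at 6m and 0.152 at 28m. The other pairs that passed by Pearson's r were Ankrd23 with Amotl2 (r = 0.621, permutation p = 0.00376, adjusted p = 0.0113, rho = 0.548, permutation p = 0.00913) and Ankrd2 with Amotl2 (r = −0.501, permutation p = 0.0181, adjusted p = 0.0387, rho = −0.36, permutation p = 0.104, adjusted p = 0.142). Without the 2 farthest mice, r was 0.337 and −0.28 for these 2 pairs (adjusted p = 0.37 and 0.546, permutation), and at 6m it was 0.0594 and 0.261, the latter with the opposite sign. By rho alone, Ankrd23 passed with Cyr61 (rho = −0.577, permutation p = 0.00485, adjusted p = 0.0126, with r = −0.377, permutation p = 0.171, adjusted p = 0.213) and with Ctgf (rho = −0.57, permutation p = 0.00439, adjusted p = 0.0126, with r = −0.473, permutation p = 0.0453, adjusted p = 0.0755). Without 24m replicate 4 and 28m replicate 5 r was −0.534 and −0.502 for these (adjusted p = 0.0904 and 0.0959, permutation), and the r of Ankrd23 with Cyr61 was 0.035 with the trend removed.

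**Figure D5:**
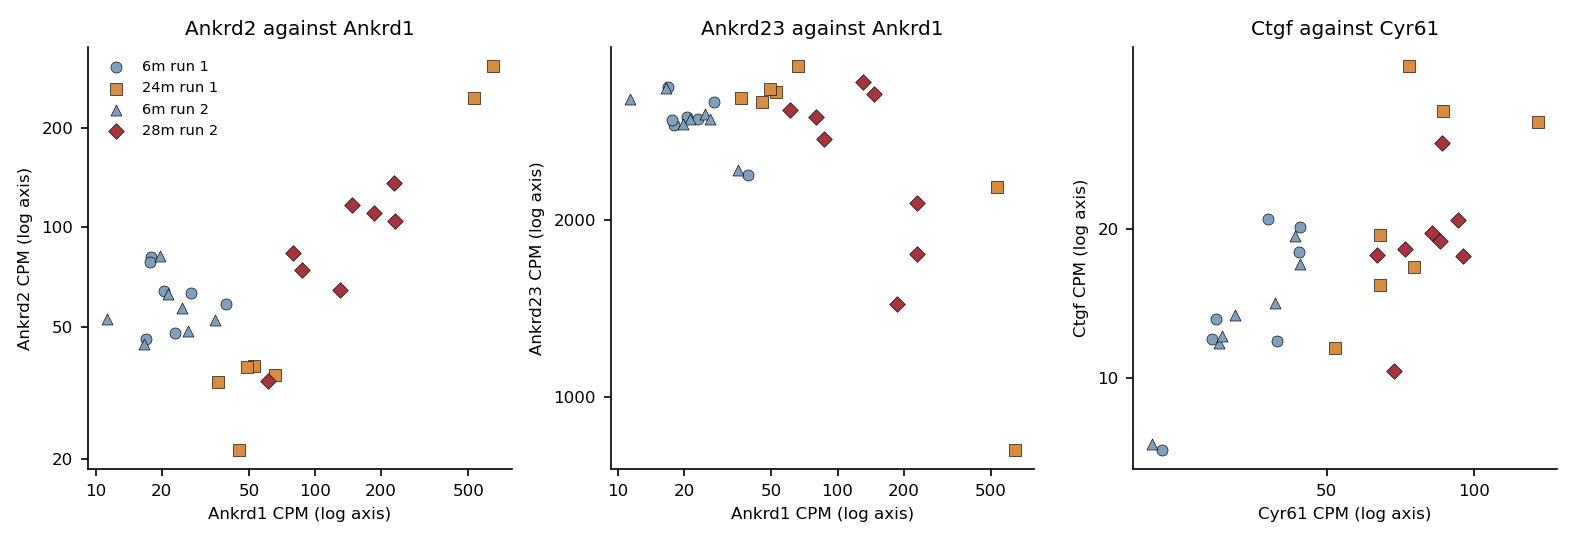
CPM of Ankrd2 against Ankrd1, Ankrd23 against Ankrd1 and Ctgf against Cyr61 in each library, on log axes, with a symbol for each age and run. The 24m mice with the highest Ankrd1, 645 and 533 CPM, have the highest Ankrd2 and low Ankrd23, and in the third panel the old mice lie to the right of the 6m mice with overlapping Ctgf.

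Genes with deviations like those of Ankrd1 were sought among 13454 genes over the 22 mice. Dnajb14 (r = 0.937), Sox9 (0.931), Lmna (0.928), which encodes lamins A and C, and Rhoc (0.927) were among the 5 most alike, and their r was between 0.297 and 0.489 at 6m. Those most like Ankrd2 were Csrp3 (r = 0.911), the muscle LIM protein of the Z disc, Ankrd1 itself (0.907), 2310046A06Rik (0.896), Eprs (0.895) and Sox9 (0.895). For Cyr61 they were Fbxw17 (0.822), Bhlhb9 (0.82), Rec8 (0.793), Spsb1 (0.792) and Aldh1a3 (0.789). These are descriptions of the same libraries, which share depth and preparation, and replicates 4 and 5 at 24m weigh on those of Ankrd1 and Ankrd2.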

How the data were processed

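RNA of the whole TA of 22 mice was sequenced in 29 libraries. Per the submitters' notes, the authors aligned reads to mm10 with STAR 2.5.4b and deposited raw counts per gene symbol. The strand setting of the counting is not given in the sources used here, so counts of Ankrd23, Ctgf, Yap1, Wwtr1, Tead1 and Tead4, which overlap another annotated gene, are uncertain. The series' design text and the sample labels give the numbers of 24m and 28m mice differently, and the labels were used. Each library of a group came from a separate mouse.

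Counts were filtered with filterByExpr, scaled by TMM and tested with edgeR 4.0.16 (R 4.3.3) by its quasi-likelihood F test, at a Benjamini-Hochberg adjusted p of 0.05. Log2 CPM used a prior count of 2. Alternatives were DESeq2 1.42.0, limma-voom 3.58.1, DESeq2's size factors, no filter, the other run's 6m libraries, removal of a length and GC trend, leaving out each mouse, and the mouse as a block. The mice that were sequenced in both runs came from the sample names, and their libraries deviated together (correlations 0.218 to 0.814). Exonic length and GC came from GENCODE (GRCm38), and figures were drawn with matplotlib 3.10.9. The tests were checked on simulated data. The members and lists were chosen with earlier results of these data known. All 10 members are named, with the 3 called genes of each list that rose and fell most and the 5 genes most like Ankrd1, Ankrd2 and Cyr61, of which some are not reported here.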

Additional observations from a re-analysis of the deposited data

Results flagged for a closer look

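In 3 of the 40 groups of values examined (10 genes in 4 groups), 1 mouse lay farther from the others than Dixon's test allows at 95%, and chance alone gives about 1 in 20 groups. Cyr61 was 135 CPM in 24m replicate 5, with the next mouse at 86.6 CPM and the lowest at 52.0 CPM. Tead4 was 20.8 CPM in the same mouse, with the next at 9.35 CPM and the lowest at 3.78 CPM. Tead4 was 18.2 CPM in the second-run library of 6m replicate 3, with the next mouse at 12 CPM and the lowest at 7.54 CPM, and the first-run library of that mouse had 17.7 CPM. Ankrd1 and Ankrd2 at 24m, where 2 mice were high together, are not found by a test of this kind.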

How the results depend on the processing

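The number of the 8 tested genes called at 28m, 5, was 3 with the length and GC trend removed, 1 against the first-run 6m libraries, and between 2 and 6 without 1 mouse in turn (2 without 6m replicate 2 or 3). All genes called at 28m numbered 6140, 4833 with the trend removed and 2981 with the first-run libraries. DESeq2 called 6 of the 8, adding Ctgf. At 24m the 11 genes called in all became 215 with DESeq2, 17 with the trend removed, 46 with the second-run 6m libraries and between 4 and 30 without 1 mouse (30 without 24m replicate 4), with none of the 8 among them. For the difference between the age effects, DESeq2 called 2 genes in all, and leaving out 1 mouse gave between 0 and 1657, the latter without 24m replicate 4. Between the runs, leaving out 1 mouse gave between 0 and 186 calls, the latter without 6m replicate 4. None of these included the 8 genes, and the cause was not tested. Of the 7 pairs related by Pearson's r 2 passed with the trend removed. Directions turned for Amotl2 at 28m (0.23 with the trend removed, and between −0.15 and 0.028 without 1 mouse, the latter without 6m replicate 3, with 0.0082 without 28m replicate 5), Yap1 at 28m (0.12 with the trend removed), and at 24m Ankrd2 (−0.051 with limma-voom), Tead4 (between −0.57 and 0.012 without 1 mouse, the latter without 6m replicate 3) and Ankrd23 (between −0.14 and 0.090 without 1 mouse, the latter without 24m replicate 4). Leaving out 24m replicates 4 and 5 together, an alternative added after the data were seen and given with no test, turned Ankrd2 (−0.91) and Ankrd23 (0.17). The r of Ankrd23 with Cyr61 was 0.035 with the trend removed, against −0.377. Leaving out the 2 farthest mice of each pair and centring the others again, also added after the data were seen, left 1 of the 7 pairs past the threshold and turned the r of Ankrd2 with Cyr61 (−0.0836) and with Ctgf (−0.185). Taking the mouse as a replicate block in the model of all libraries (limma-voom) called 0 of the 8 genes, and the comparison of the runs without the block also called 0. Ankrd1 kept its direction under all 21 alternatives tried at each age, with log2 fold changes from 2.498 to 2.83 at 28m and from 1.09 to 3.28 at 24m, and so did Cyr61, from 0.92 to 1.27 and from 0.90 to 1.22. Depth limits Tead4 most, which had as few as 28 counts in a library.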
